A study of Mus musculus with 6 samples.

Results

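Levels of 9 transcription factors that mark position along the gut, Gata4, Gata6, Cdx1, Cdx2, Pdx1, Onecut2, Hoxb6, Hoxb7 and Hoxb8, were read from 6 libraries of RNA from the mouse intestinal epithelium. They were taken by symbol from the 23845 genes of the count table, where each of the 9 has 1 row. The rule names genes and uses no measured value, but the list was drawn up with earlier results of these data known. The series asks how the dose of Neurog3, the factor that commits gut progenitors to the hormone-secreting enteroendocrine lineage, acts on their differentiation. There were 3 groups of 2 libraries. EYFP libraries came from mice labelled Neurog3+/+EYFP, of a mixed C57BL6 and CD1 strain, with 2 Neurog3 alleles and a yellow fluorescent reporter. EGFP libraries came from Neurog3+/-EGFP mice of strain C57BL6, with 1 allele and a green reporter. WT libraries came from wild-type C57BL6 mice, and their titles point to duodenum, the first stretch of the small intestine. Reporter-positive cells were isolated by flow sorting, and the labels do not describe the WT cells as sorted. Age, sex, gates, the gut segment of the sorted cells and the number of animals per library are not stated in the sources used here. Nothing says that the libraries of a group came from separate animals, so p-values measure only the spread between these libraries.

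Gut endoderm is patterned from front to back by transcription factors that stay on in the adult epithelium. Gata4 is a zinc finger factor of the duodenum and jejunum that keeps ileal genes off, and its relative Gata6 acts along the whole small intestine. Cdx1 and Cdx2 are homeobox factors of the intestine proper, absent from the normal stomach, and Cdx2 gives the epithelium its intestinal identity. Pdx1 is a homeobox factor of the duodenum, the pancreas and the gastric antrum. Onecut2 is a cut homeobox factor of the duodenum that is also active in liver and pancreas development. The Hox genes lie in clusters and are used in their order along the cluster from front to back, with the Hoxb6, Hoxb7 and Hoxb8 genes in the middle of the Hoxb cluster. Neurog3, in turn, acts in short-lived progenitors of the crypt.

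Library totals ranged from 7938358 to 20589683 estimated counts. Levels are in CPM, which divides a count by the total of its library after TMM correction. Libraries are numbered 1 and 2 within a group, and values are given in that order. Neurog3 itself stood at 563 and 348 CPM in EYFP, 120 and 179 CPM in EGFP, and 6.0 and 6.39 CPM in WT libraries. All 6 epithelial markers were detected in every library, with summed levels of 5902 and 6064 CPM in EYFP, 7510 and 8221 CPM in EGFP, and 10929 and 12260 CPM in WT. The sum of 6 enteroendocrine markers ran the other way, at 58872 and 44362 CPM in EYFP, 8699 and 13213 CPM in EGFP, and 492 and 555 CPM in WT. Sorting, cell composition, reporter and, for the EYFP libraries, strain therefore change together between groups. Transcripts of the sex chromosomes differ as well: Xist, made from the inactive X of females, stood at 966 and 969 CPM in EGFP, under 3 CPM in both EYFP libraries, and at 1.17 and 726 CPM in WT. The part of each in the differences below cannot be told apart, and in bulk RNA fewer cells of a type cannot be told apart from less RNA per cell.

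The 9 factors spanned a wide range of levels, and 6 of them were well expressed in every library. Per kilobase of transcript, Cdx2 averaged 88.1 ± 15.8 CPM in EYFP, 68.4 ± 6.28 CPM in EGFP and 87.6 ± 22.8 CPM in WT (SD, n = 2 each). Cdx1, scaled the same way, averaged 53.2 ± 4.16 CPM per kilobase in EYFP, 113 ± 12.4 in EGFP and 78.0 ± 3.75 in WT. Cdx2 thus stood above Cdx1 in both EYFP libraries and below it in both EGFP libraries, and in WT the ranges of the pair overlapped. Gata4 came next in each group, with 41.1 and 38.9 CPM per kilobase in EYFP, 33.9 and 36.9 in EGFP, and 75.8 and 76.1 in WT. Its WT range lay within those of Cdx1 and Cdx2, and in the sorted groups it lay below both. Gata6 followed, with 26.7 and 23.9 CPM per kilobase in EYFP, 23.1 and 21.3 in EGFP, and 38.4 and 38.7 in WT, below Gata4 in all 6 libraries.

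Onecut2 and Pdx1 formed a lower pair. Onecut2 averaged 6.79 ± 1.84 CPM per kilobase in EYFP, 4.56 ± 0.421 in EGFP and 6.14 ± 1.85 in WT, and Pdx1 averaged 6.40 ± 0.0957 in EYFP, 4.13 ± 1.42 in EGFP and 3.56 ± 1.56 in WT. Their ranges overlapped in EYFP and in EGFP and did not in WT, where Onecut2 was the higher. Hoxb6, Hoxb7 and Hoxb8 came last, with no library above 1.23 CPM per kilobase. In EYFP their order differed by less than the spread of the libraries. In EGFP, Hoxb8 at 0.320 and 0.353 CPM per kilobase lay below the other two, and in WT it had no count in either library.

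**Figure D1:**
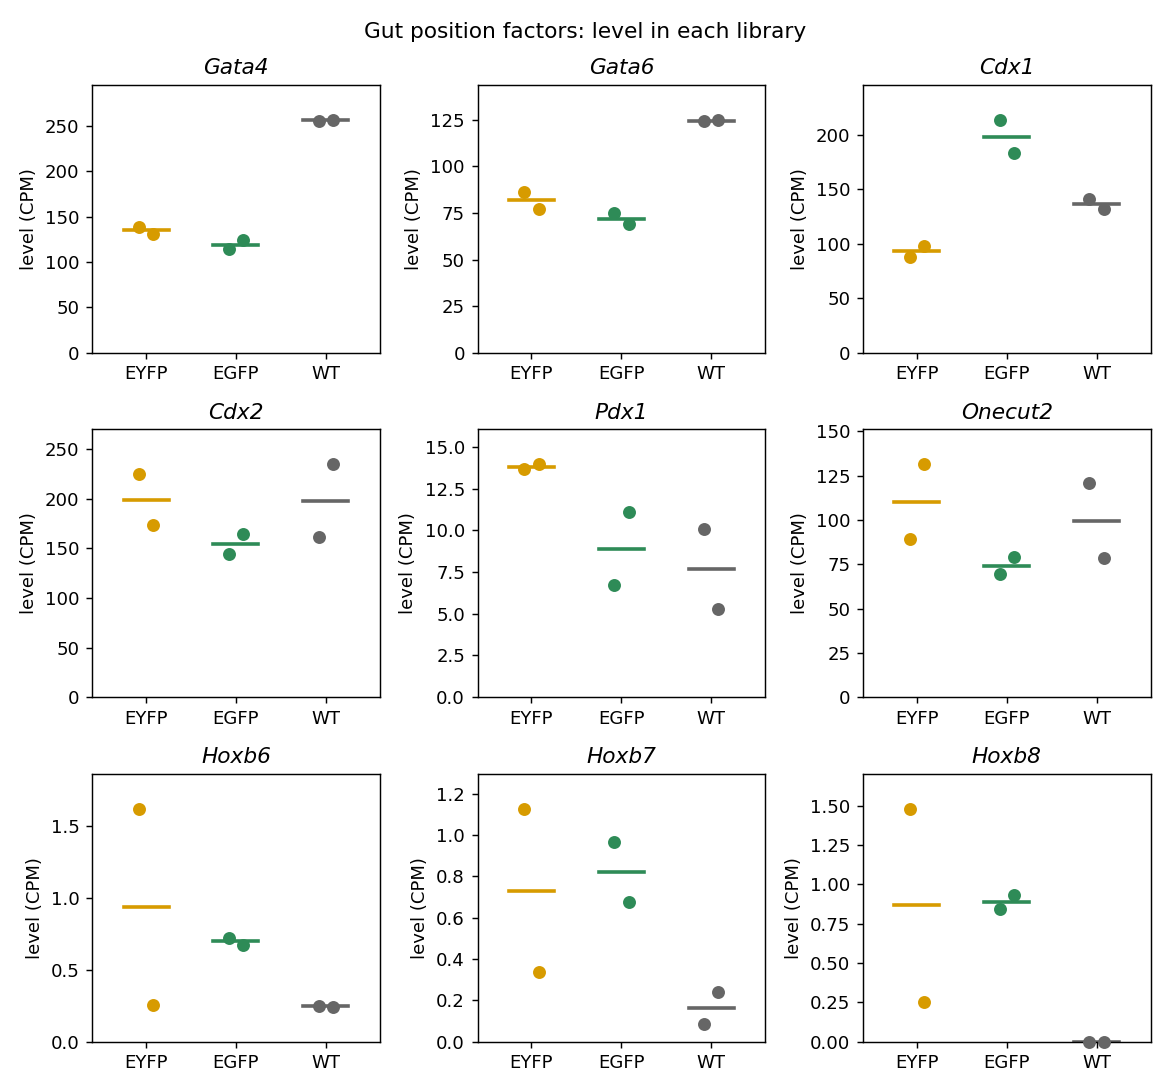
Level of each of the 9 factors in CPM (vertical axis, linear, from 0, with its own scale per panel) in the EYFP, EGFP and WT groups. Points are libraries and bars are means of 2 libraries. Gata4 and Gata6 are highest in WT, Cdx1 is highest in EGFP, and Hoxb8 is at 0 in both WT libraries.

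Of the 9 factors, 8 passed the filter on low counts and were tested among 13935 genes with edgeR's quasi-likelihood test. Hoxb6 did not pass, and Hoxb7 and Hoxb8 passed through the sorted groups. Between EYFP and EGFP cells, 0 factors were higher, 1 (Cdx1) was lower and 7 were not past an adjusted p of 0.05, where 36.2% of all tested genes were called, 16.8% higher and 19.4% lower. Between EGFP cells and WT epithelium, 2 were higher (Cdx1 and Hoxb8), 2 lower (Gata4 and Gata6) and 4 not past the test, where 41.5% of genes were called, 19.6% higher and 21.9% lower. Between EYFP cells and WT, 1 was higher (Hoxb8), 3 were lower (Gata4, Gata6 and Cdx1) and 4 were not past the test, where 60.6% of genes were called, 27.1% higher and 33.5% lower.

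These shares of called factors are near or below those of all genes, so the size and pattern of single factors carry the account. The 2 libraries of each group did not overlap for 6 of the 8 factors between EYFP and EGFP (5 higher, 1 lower), against 74.3% of tested genes (37.3% higher, 37% lower). They did not overlap for 5 of the 8 between EGFP and WT (3 higher, 2 lower), against 71.2% of tested genes (35% higher, 36.2% lower), and for 6 of the 8 between EYFP and WT (3 higher, 3 lower), against 82% of tested genes (37% higher, 45% lower). The median log2 fold change of the 8 factors was 0.18, -0.06 and 0.08 in the order of these comparisons, and that of all tested genes 0.01, 0.00 and -0.12. These medians include Hoxb7 and Hoxb8, which had to be high in sorted cells to be tested. The comparisons share libraries and are not independent of each other.

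**Figure D2:**
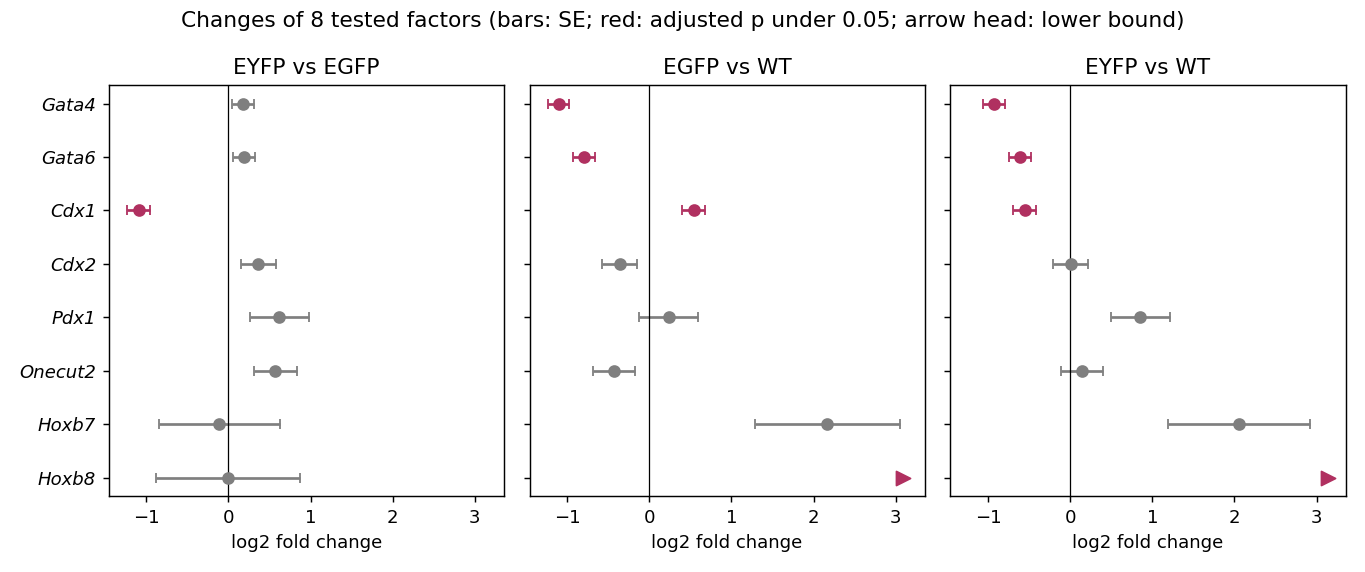
Log2 fold change (horizontal axis) of the 8 tested factors in 3 comparisons, first-named group over the second. Points are edgeR estimates with bars of 1 SE, and red marks an adjusted p under 0.05. The arrow heads of Hoxb8 stand at its folds over a WT floor of 3 counts, 8.53 for EGFP and 8.77 for EYFP. They leave out the counting error of the sorted cells. Gata4 and Gata6 lie left of 0 in both comparisons with WT, and Cdx1 lies left of 0 for EYFP over EGFP and EYFP over WT and right of 0 for EGFP over WT.

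The GATA pair was lower in both sorted groups than in WT epithelium and did not differ past the test between them. Gata4, on the minus strand of chromosome 14 from 63198922 to 63271692 (mm10), stood at 139 and 131 CPM in EYFP, 114 and 124 CPM in EGFP, and 256 and 257 CPM in WT. Both WT libraries lay above all 4 sorted libraries. Gata4 fell in EGFP cells relative to WT, with a log2 fold change of -1.10 ± 0.13 (edgeR adjusted p = 0.00046), and in EYFP cells by 0.93 ± 0.13 on the log2 scale (adjusted p = 0.00055). Leaving out any 1 library kept both calls, with values from -1.16 to -0.94 for EGFP over WT and from -0.96 to -0.77 for EYFP over WT. Its EYFP over EGFP log2 fold change was 0.18 ± 0.13 (adjusted p = 0.32). The authors' deposited table gives a WT over EGFP fold of 2.10 for Gata4, with an adjusted p of 3.73e-07.

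Gata6, on the plus strand of chromosome 18 from 11052064 to 11085635, stood at 86.3 and 77.2 CPM in EYFP, 74.8 and 68.8 CPM in EGFP, and 124 and 125 CPM in WT. The WT libraries were again above all 4 sorted ones. It fell in EGFP cells relative to WT (log2 fold change -0.80 ± 0.13, adjusted p = 0.0022) and in EYFP cells (-0.61 ± 0.13, adjusted p = 0.0047), and between EYFP and EGFP it had 0.19 ± 0.13 (adjusted p = 0.30). Exons of Gata6 overlap those of 1010001N08Rik, a transcript of the opposite strand, and since the strand setting is not given, reads of the pair cannot be told apart in the overlap. That transcript held 77.1 and 63.6 estimated counts in EYFP, 56.3 and 77.8 in EGFP, and 157 and 280 in WT. These counts are small beside those of Gata6, which summed to 2143 in EYFP, 1434 in EGFP and 3564 in WT.

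The size of these falls depends on the scaling. With library totals that leave out the 50 most abundant genes, the median log2 fold change of all genes moved to 0.41 for EGFP over WT and to 0.35 for EYFP over WT. Gata4 stayed lower, at -0.70 and -0.45, and Gata6 stayed lower in EGFP (-0.39, adjusted p = 0.037) but lost its call in EYFP (-0.13, adjusted p = 0.39). Relative to the median of all genes under the same scaling, Gata4 was at -1.10 for EGFP over WT and -0.81 for EYFP over WT, and Gata6 at -0.80 and -0.49.

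Within a library, the ratio of Gata4 to Gata6 counts does not depend on the scaling. It was 1.60 and 1.70 in EYFP, 1.53 and 1.81 in EGFP, and 2.06 and 2.05 in WT. Both WT ratios lay above all 4 ratios of sorted cells, so Gata4 was lower relative to Gata6 there. The sorted groups overlapped in this ratio.

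Cdx1 was the 1 factor past the test between the sorted groups. On the minus strand of chromosome 18 from 61018862 to 61036199, it stood at 87.9 and 98.2 CPM in EYFP, 214 and 183 CPM in EGFP, and 141 and 132 CPM in WT. All EYFP values lay below WT and all EGFP values above it. In EYFP cells Cdx1 fell relative to EGFP, with a log2 fold change of -1.09 ± 0.14 (edgeR adjusted p = 0.0014), and with values from -1.21 to -0.92 and every call kept when any 1 library was left out. The authors' deposited table gives an EYFP over EGFP fold of 0.466 with an adjusted p of 3.9e-09.

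Against WT, Cdx1 rose in EGFP cells (0.54 ± 0.14, adjusted p = 0.018) and fell in EYFP cells (-0.55 ± 0.14, adjusted p = 0.011). Neither call against WT held in every alternative. The higher level in EGFP lost its call without EGFP 1 (0.52, adjusted p = 0.079) or WT 2 (0.49, adjusted p = 0.068). The lower level in EYFP lost it without EYFP 1 (-0.47, adjusted p = 0.089), without EGFP 1 (-0.40, adjusted p = 0.063), in a fit of only the 4 libraries compared (-0.39, adjusted p = 0.062), and with totals that leave out the 50 most abundant genes (-0.08, adjusted p = 0.65). The authors' deposited table puts Cdx1 at 1.33 for WT over EYFP with an adjusted p of 0.075.

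Cdx2, on the minus strand of chromosome 5 from 147300805 to 147307270, did not pass the test in any comparison. It stood at 225 and 174 CPM in EYFP, 145 and 165 CPM in EGFP, and 162 and 235 CPM in WT, with EYFP above EGFP and the WT range overlapping both. Its log2 fold changes were 0.36 ± 0.21 for EYFP over EGFP, -0.36 ± 0.21 for EGFP over WT and 0.01 ± 0.21 for EYFP over WT (adjusted p of 0.22, 0.23 and 0.98). Without WT 1 it passed as lower in EGFP than WT (-0.60, adjusted p = 0.048).

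The Cdx paralogs thus changed unequally. The ratio of Cdx1 to Cdx2 counts was 0.391 and 0.565 in EYFP, 1.48 and 1.11 in EGFP, and 0.873 and 0.562 in WT. Both EGFP libraries held more Cdx1 than Cdx2 reads, and the other 4 held fewer, with EYFP 2 and WT 2 nearly equal. These counts are not scaled for transcript length. Per kilobase, WT 1 also held more Cdx1 (80.7 CPM) than Cdx2 (71.5 CPM). The ratio of Gata4 to Cdx2 was 0.617 and 0.755 in EYFP, 0.789 and 0.755 in EGFP, and 1.58 and 1.09 in WT, so WT libraries stood above all sorted ones in this ratio too.

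**Figure D3:**
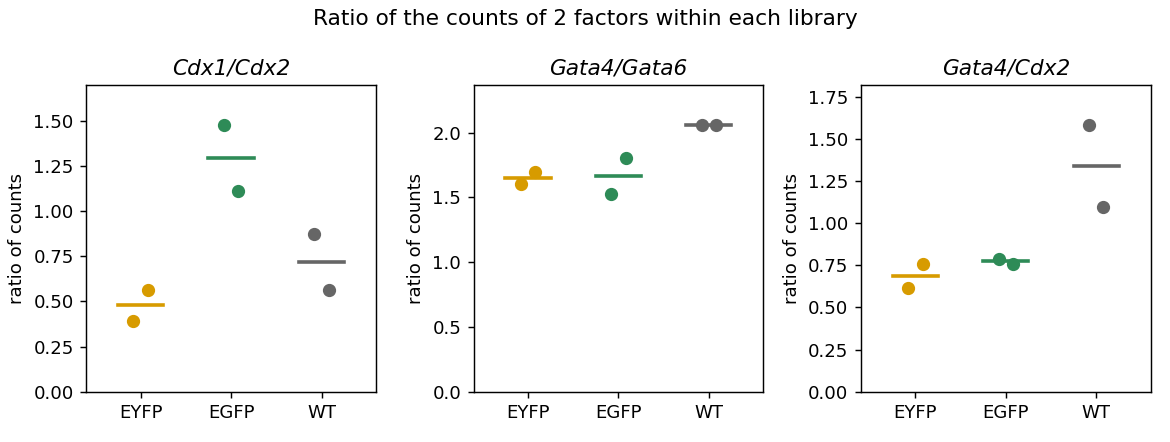
Ratio of the counts of 2 factors within each library (vertical axis, linear, from 0) for Cdx1 over Cdx2, Gata4 over Gata6 and Gata4 over Cdx2, in the EYFP, EGFP and WT groups. Points are libraries and bars are means of 2 libraries. Cdx1 over Cdx2 is highest in the EGFP libraries, and the other ratios are highest in WT. Counts are not scaled for transcript length.

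Pdx1 and Cdx2 are neighbours on mouse chromosome 5, on opposite strands and 24956 bases apart. The RefSeq windows around their starts are printed because the pair stands for the front and the whole of the intestine, lies close together and was not called in any comparison. Each window runs from 250 bases before to 50 bases after the start (GRCm38.p6, the assembly of mm10), 5′ to 3′ on the strand of the gene, for Pdx1 at chr5:147269847-147270146 (plus) and for Cdx2 at chr5:147307200-147307499 (minus). Capitals mark motif letters, and neither window holds a motif searched on either strand.
Pdx1: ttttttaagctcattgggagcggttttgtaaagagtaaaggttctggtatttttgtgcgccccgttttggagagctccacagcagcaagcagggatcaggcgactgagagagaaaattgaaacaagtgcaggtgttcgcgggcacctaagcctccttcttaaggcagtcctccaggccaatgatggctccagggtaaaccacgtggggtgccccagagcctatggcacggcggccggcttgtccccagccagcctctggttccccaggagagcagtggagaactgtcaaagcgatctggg
Cdx2: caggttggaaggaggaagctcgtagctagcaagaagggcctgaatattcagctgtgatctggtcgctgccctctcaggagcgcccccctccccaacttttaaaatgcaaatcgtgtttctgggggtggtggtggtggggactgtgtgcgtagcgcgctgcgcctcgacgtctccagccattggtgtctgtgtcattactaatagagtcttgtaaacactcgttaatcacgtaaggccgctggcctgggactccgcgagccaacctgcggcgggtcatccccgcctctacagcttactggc
The Cdx word TTTATNG was found on either strand in 10.9% of 32851 such windows. The GATA word AGATAA was found in 11.2% of them, and the homeodomain word TAATTA in 5.29%. No match says only that these letters are not in these windows.

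Pdx1, on the plus strand from 147269959 to 147275848, stood at 13.7 and 14.0 CPM in EYFP, 6.75 and 11.1 CPM in EGFP, and 10.1 and 5.31 CPM in WT. Both EYFP libraries were above the other 4, and the EGFP and WT ranges overlapped. The log2 fold change was 0.62 ± 0.36 for EYFP over EGFP (adjusted p = 0.21), 0.24 ± 0.36 for EGFP over WT (adjusted p = 0.64) and 0.86 ± 0.36 for EYFP over WT (adjusted p = 0.070). The difference between EYFP and WT lay near the threshold. It passed with totals that leave out the 50 most abundant genes (1.31, adjusted p = 0.021), with no filter on low counts (0.86, adjusted p = 0.046), in the DESeq2 Wald test (0.96, adjusted p = 0.048), with only the 4 libraries compared (1.01, adjusted p = 0.049) and without WT 1 (1.38, adjusted p = 0.017). Without WT 2 it was 0.45 (adjusted p = 0.30), and without the other libraries in turn it was from 0.84 to 1.0 (adjusted p from 0.051 to 0.18). The authors' deposited table puts the WT over EYFP fold of Pdx1 at 0.504 with an adjusted p of 0.049.

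Pdx1 also marks pancreas, so pancreatic markers were read beside it. Of 8, Ptf1a, the factor of acinar precursors, was at 0 in all 6 libraries, and the summed level was 9.23 and 8.33 CPM in EYFP, 4.94 and 11.2 CPM in EGFP, and 13 and 8.50 CPM in WT. Most of that sum was Cela1, an elastase, and Ins1, an insulin gene, was at 0 in 5 of 6 libraries. The ratio of Pdx1 to Cdx2 counts was 0.0609 and 0.0803 in EYFP, 0.0467 and 0.0672 in EGFP, and 0.0623 and 0.0226 in WT, with overlapping groups.

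Onecut2, on the plus strand of chromosome 18 from 64340020 to 64400987, stood at 89.1 and 131 CPM in EYFP, 69.2 and 78.9 CPM in EGFP, and 121 and 78.3 CPM in WT. EYFP lay above EGFP, and WT overlapped both. Its log2 fold changes were 0.57 ± 0.26 for EYFP over EGFP (adjusted p = 0.13), -0.43 ± 0.26 for EGFP over WT (adjusted p = 0.24) and 0.15 ± 0.26 for EYFP over WT (adjusted p = 0.65). The authors' deposited table calls the first of these, with an EYFP over EGFP fold of 1.48 and an adjusted p of 0.046.

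The Hoxb genes were nearly silent in WT and faint in the sorted cells. They lie in a row on the plus strand of chromosome 11, Hoxb8 from 96281905 to 96285315, Hoxb7 from 96286623 to 96290162 and Hoxb6 from 96292476 to 96301569, with 1307 bases between Hoxb8 and Hoxb7 and 2313 between Hoxb7 and Hoxb6. Hoxb8 held 21 and 3 counts in EYFP, 7 and 11 counts in EGFP, and 0 counts in both WT libraries. In CPM these are 1.48 and 0.252 in EYFP, and 0.844 and 0.930 in EGFP. All 4 sorted libraries held reads of Hoxb8 and neither WT library did, although their raw totals were the largest.

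Hoxb8 was higher in EGFP than in WT (edgeR adjusted p = 0.021) and in EYFP than in WT (adjusted p = 0.013). It passed the filter on low counts through the sorted groups, so these calls were in part built into the choice of genes. Set against a floor of 3 counts over both WT libraries (0.105 CPM), Hoxb8 was 8.53-fold higher in EGFP and 8.77-fold higher in EYFP. These folds take the sorted counts as exact, so they are not full lower bounds. Without WT 1 and WT 2 these folds were 4.95 and 3.58 for EGFP and 5.09 and 3.68 for EYFP, and without EYFP 2 the EYFP fold was 14.1. Without EYFP 1, only 3 counts were left in EYFP, at the floor, so no fold is given. The EGFP call was lost without EGFP 1 (adjusted p = 0.068), EGFP 2 (0.082), WT 1 (0.059) or WT 2 (0.085), and the EYFP call without EYFP 1 (0.083) or WT 2 (0.057). The ratio of Hoxb8 levels, EYFP over EGFP, was 1.03 with an exact 95% interval (Clopper-Pearson, counting error only) of 0.535 to 2.01, and 0.282 (interval 0.0532 to 0.966) without EYFP 1.

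The RefSeq window around the Hoxb8 start is printed because Hoxb8 is the factor with reads in all sorted libraries and none in WT. It lies at chr11:96281655-96281954 (GRCm38.p6, plus strand), and capitals mark its TTTATNG words, searched on both strands.
Hoxb8: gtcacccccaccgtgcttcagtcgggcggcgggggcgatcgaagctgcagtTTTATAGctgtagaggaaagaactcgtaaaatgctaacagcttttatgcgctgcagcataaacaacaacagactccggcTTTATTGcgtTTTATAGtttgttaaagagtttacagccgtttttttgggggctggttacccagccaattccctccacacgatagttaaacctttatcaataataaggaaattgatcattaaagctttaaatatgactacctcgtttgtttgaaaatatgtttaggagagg
It holds 3 of these words, all on the plus strand, at -199, -120 and -110 from the start. No GATA or homeodomain word is in the window, so no motifs overlap. Of all windows of this length, 0.0639% hold 3 or more TTTATNG words. A match is a description of the letters and not a site of binding.

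Hoxb7 held 16 and 4 counts in EYFP (1.13 and 0.336 CPM), 8 and 8 counts in EGFP (0.965 and 0.676 CPM), and 1 and 4 counts in WT (0.0833 and 0.241 CPM). All sorted libraries were above WT, but the tests did not pass, at 2.17 ± 0.88 for EGFP over WT (edgeR adjusted p = 0.086) and 2.06 ± 0.86 for EYFP over WT (adjusted p = 0.071). Both passed with totals that leave out the 50 most abundant genes (2.57, adjusted p = 0.040, and 2.53, adjusted p = 0.031), and the EYFP difference passed without EYFP 2 (2.64, adjusted p = 0.042). It was 0.93 without EYFP 1 (adjusted p = 0.52), 1.58 without WT 1 and 3.0 without WT 2, and the EGFP difference was 1.71 without WT 1 and 3.13 without WT 2 (adjusted p from 0.12 to 0.28 in these last 4). Hoxb7 in EYFP over EGFP had -0.11 ± 0.74 (adjusted p = 0.92).

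Hoxb6 held 23 and 3 counts in EYFP (1.62 and 0.252 CPM), 6 and 8 counts in EGFP (0.724 and 0.676 CPM), and 3 and 4 counts in WT (0.250 and 0.241 CPM). EYFP 2 was at the WT level and EYFP 1 was the highest of all. The ratio of levels was 4.07 for EYFP over WT (exact 95% interval 1.72 to 11.1), but 1.03 without EYFP 1, and 2.84 for EGFP over WT (interval 1.07 to 8.32). With no filter on low counts the edgeR values were 0.45, 1.47 and 1.92 on the log2 scale for EYFP over EGFP, EGFP over WT and EYFP over WT (adjusted p of 0.75, 0.30 and 0.10). Hoxb6 also passed the filter in some fits that left out 1 library. There its EYFP over WT value ran from 1.89 without WT 2 to 2.67 without EYFP 2, and without EYFP 1 it did not pass.

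EYFP 1 had the most reads of all 3 Hoxb factors and also the most of 2 macrophage genes. Lyz2, a lysozyme of macrophages, stood at 207 and 0.168 CPM in EYFP, 0.482 and 29.3 CPM in EGFP, and 2.58 and 2.65 CPM in WT. Csf1r, the receptor of a macrophage growth factor, stood at 19.3 and 0 CPM in EYFP, 0 and 3.30 CPM in EGFP, and 0.666 and 1.75 CPM in WT. EYFP 2 and EGFP 1, with Csf1r at 0, held Hoxb8 at 0.252 and 0.844 CPM, and EYFP 1 and EGFP 2 at 1.48 and 0.930 CPM. Hoxb7 and Hoxb6 were higher in EGFP 1 (0.965 and 0.724 CPM) than in EGFP 2 (0.676 CPM each). The sum of 7 immune markers was 235 and 7.15 CPM in EYFP, 15.9 and 50.6 CPM in EGFP, and 134 and 159 CPM in WT, where Cd8a, of T cells, and Ptprc, of all leukocytes, made up most of it. Beyond these values the part of immune cells in the Hoxb reads was not tested.

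Markers of other cells of the gut wall, where Hox genes are active, were low beside the epithelial markers. In every sorted library, though, each of their sums lay above the highest level of a Hoxb factor, 1.62 CPM. The sum of 10 mesenchyme and muscle markers was 4.23 and 6.39 CPM in EYFP, 15.3 and 4.23 CPM in EGFP, and 1.42 and 27.5 CPM in WT, and Dcn, Lum and Foxf1, which mark connective tissue, were at 0 in all sorted libraries. Others of the list were not at 0. Pdgfrb, a receptor of pericytes, stood at 2.26 and 2.19 CPM in EYFP, 2.29 and 3.38 CPM in EGFP, and 0.833 and 1.39 CPM in WT. It was above WT in all 4 sorted libraries, as Hoxb7 and Hoxb8 were. Col1a1, a collagen, stood at 0.564 and 1.01 CPM in EYFP, 4.22 and 0.338 CPM in EGFP, and 0.0833 and 8.92 CPM in WT. Of the 10 markers, 4 were tested and 0 were called in any comparison. Their median log2 fold change was -0.85 for EGFP over WT and -1.78 for EYFP over WT. WT 2, with the highest of these sums, held 0 counts of Hoxb8, 4 of Hoxb7 and 4 of Hoxb6. The part of such cells in the Hoxb reads was not tested. The sum of 6 neuron and glia markers was 6.41 and 7.57 CPM in EYFP, 2.29 and 2.71 CPM in EGFP, and 1.92 and 1.63 CPM in WT, and Sox10 and Hand2, of enteric glia and neurons, were at 0 in all 6. The sum of 5 endothelial markers was 18.9 and 14.8 CPM in EYFP, 4.34 and 4.74 CPM in EGFP, and 1.83 and 2.53 CPM in WT, most of it Pecam1 in all 6 libraries, with Emcn at 0 in all 6. The neuronal and endothelial sums were higher in both sorted groups, as the Hoxb counts were, and their part in them was not tested.

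The other Hox genes were read beside the 3 Hoxb factors, and are given here from the front of the body axis to the back. Of 39 Hox genes in the table, those of groups 1 to 5 summed to 327 and 137 counts in EYFP, 93 and 186 in EGFP, and 26 and 81 in WT. Groups 6 to 9, which hold the 3 factors, summed to 86 and 20 counts in EYFP, 31 and 45 in EGFP, and 20 and 24 in WT. Groups 10 to 13 were almost empty, with 3 and 0 counts in EYFP, 3 and 0 in EGFP, and 2 and 14 in WT. The Hoxb cluster held the largest part in sorted cells, 302 and 103 counts in EYFP and 86 and 162 in EGFP, against 22 and 37 counts in WT.

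Of the other 36 Hox genes, 6 were tested. Between EYFP and EGFP cells 0 were called by edgeR, where 0 had an unadjusted p under 0.05 and 0 were called by DESeq2 (without a filter on low counts edgeR called 1 lower). Between EGFP and WT 3 were higher and 0 lower, Hoxb2 (3.26 ± 0.63), Hoxb4 (2.49 ± 0.73) and Hoxb3 (2.41 ± 0.59). For EGFP over WT, 5 were higher and 1 lower with no filter. With a minimum of 10 counts in 2 libraries of 1 group, 3 were higher and 1 lower. Between EYFP and WT 5 were higher and 0 lower, led by Hoxb4 (3.23 ± 0.71) and Hoxb3 (3.16 ± 0.58), with Hoxb2 (2.96 ± 0.63), Hoxa5 (2.80 ± 0.73) and Hoxa4 (2.28 ± 0.71). Hoxa3 had 0.54 ± 0.84 and was not called. All 6 passed the filter on low counts through the sorted groups, so their higher levels against WT were in part built into the choice of genes. With no filter, 24 of the 36 could be fitted, with median log2 fold changes of -0.15, 1.01 and 1.0 for EYFP over EGFP, EGFP over WT and EYFP over WT. Hoxb2 stood at 2.96 and 1.60 CPM in EYFP, 2.29 and 3.30 CPM in EGFP, and 0.416 and 0.181 CPM in WT, and kept both calls in every alternative.

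Counts of called Hox genes moved with the libraries, from 1 to 4 higher for EGFP over WT and from 3 to 6 for EYFP over WT when 1 library was left out. Hoxb3 lost its call for EGFP over WT without EGFP 2 (2.35, adjusted p = 0.055) or WT 1 (2.0, adjusted p = 0.063), and Hoxb4 without EGFP 2 (1.45, adjusted p = 0.24), WT 1 (2.86, adjusted p = 0.066) or WT 2 (2.15, adjusted p = 0.14). Without EYFP 1, Hoxb3 had 2.36 and Hoxb4 2.61 for EYFP over WT, both still called, and Hoxa4 (1.97, adjusted p = 0.12) and Hoxa5 (2.37, adjusted p = 0.089) were not. Hoxa4 (1.60, adjusted p = 0.11) and Hoxa5 (2.43, adjusted p = 0.081) were also not called without WT 1. Without WT 2 the values were 4.15 for Hoxa4 and 3.45 for Hoxa5 for EYFP over WT, and Hoxb3 had 3.85 for EYFP over WT and 3.10 for EGFP over WT. Without WT 1, Hoxb2 had 3.59 for EYFP over WT and 3.89 for EGFP over WT, and Hoxb4 had 3.15 for EGFP over WT without EGFP 1. Some untested genes were named after their values were seen. Hoxa9, a gene of the Hoxa cluster, ran the other way from the Hoxb genes, with 6 and 6 counts in EYFP, 0 and 1 in EGFP, and 12 and 10 in WT. Hoxa9 did not pass the main filter. With no filter on low counts it was called lower in EGFP than in WT (edgeR adjusted p = 0.026). It was also called with the stricter filter of at least 10 counts in 2 libraries of 1 group (0.016), which it passed only through WT, where it is high. Since it was picked after its values were seen, these calls are no test of its fall. Hoxb9, the next gene behind Hoxb8, held 5 and 8 counts in EGFP and 0 in the other 4 libraries, and Hoxc6 held 14 and 2 counts in EYFP, 3 and 6 in EGFP and 0 in WT.

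**Figure D4:**
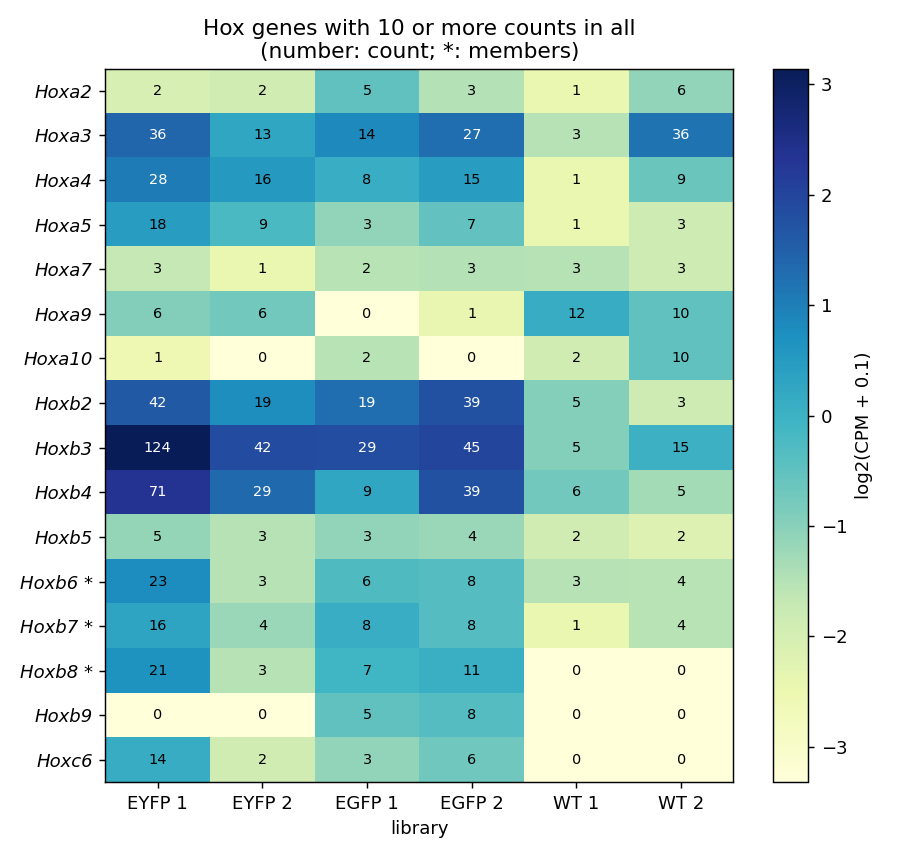
Levels of the 16 Hox genes with 10 or more counts in all, as log2(CPM + 0.1) by colour, in the 6 libraries (horizontal axis). Each number is the rounded count, and asterisks mark Hoxb6, Hoxb7 and Hoxb8. Hoxb3 has the most reads in each EYFP and EGFP library, Hoxb8 and Hoxc6 are at 0 in both WT libraries, and Hoxa9 has most of its reads in WT.

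Profiles over the 6 libraries were set side by side as distances between log2 CPM values, each gene centred on its own mean. Among the 8 tested factors, Gata4 and Gata6 were the closest pair, at 0.40, and Gata4 and Hoxb8 the farthest, at 4.34. Among 13111 other genes, the nearest to Gata4 were Tmem160 (0.13) and Snx13 (0.15), to Gata6 Cfl1 (0.088) and Mob3b (0.15), to Cdx1 Tagap1 (0.066) and Mars (0.17), and to Cdx2 Tmem127 (0.095) and Amn1 (0.17). The nearest to Pdx1 were Shroom4 (0.45) and Dusp10 (0.46), to Onecut2 Vps37b (0.25) and Btg1 (0.29), to Hoxb7 Nynrin (0.63) and Tmem173 (0.75), and to Hoxb8 Hoxb2 (1.02) and Pcdhgc3 (1.05). The gene in the middle of the ranking lay at 1.34 from Cdx2, the smallest such value, and at 3.46 from Hoxb8, the largest. These are descriptions over 6 libraries.

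Close relatives of the factors were mostly faint. Of 7 paralogs, 3 were tested, and of these 0 were called by edgeR between EYFP and EGFP (1 at an unadjusted p under 0.05, 0 by DESeq2), 1 was higher between EGFP and WT, and 2 were higher and 1 lower between EYFP and WT. Onecut3, a relative of Onecut2, rose in EGFP (4.85 ± 0.71, adjusted p = 0.0025) and in EYFP (5.70 ± 0.71, adjusted p = 0.00071) relative to WT. It stood at 17.1 and 39.1 CPM in EYFP, 9.29 and 21.6 CPM in EGFP, and 0.666 and 0.422 CPM in WT, where Onecut2 itself was not called, and it had 4.11 for EGFP over WT without EGFP 2 and 4.98 for EYFP over WT without EYFP 2. Gata5, another GATA factor of the gut, stood at 49.3 and 41.9 CPM in EYFP, 64.5 and 65.5 CPM in EGFP, and 64.0 and 143 CPM in WT. Its call as lower in EYFP than in WT (-1.18 ± 0.36, adjusted p = 0.028) rests on WT 2, since the value was -0.49 without it, and the adjusted p was from 0.055 to 0.12 without EYFP 1, EYFP 2, EGFP 1 or EGFP 2. Gata2 was called higher in EYFP than in WT with 1.06 and 1.60 CPM in EYFP and 0.0833 and 0.482 CPM in WT (2.08 ± 0.78, adjusted p = 0.048), a call kept only without WT 2 (3.82, adjusted p = 0.040) among the fits that left out 1 library, where the others gave adjusted p from 0.056 to 0.22, with 1.43 without WT 1. Onecut3 and Gata2 had 8 and 7 and 1 and 8 counts in WT and passed the filter through the sorted groups. Their higher levels against WT were thus in part built into the choice of genes. The medians of the 3 paralogs were 0.85, -0.06 and 2.08.

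Genes whose proteins bind beside Hox, Cdx or GATA factors on DNA, the TALE homeobox family (Pbx, Meis and Pknox) and the FOG proteins (Zfpm), were tested for 8 of 11. Between EYFP and EGFP 3 were higher, 0 lower and 5 not past the test (median log2 fold change 0.68), among them Meis3 (1.20 ± 0.22) and Zfpm1 (0.71 ± 0.13), which binds GATA factors. Between EGFP and WT 3 were higher, among them Meis3 (2.16 ± 0.25) and Pbx3 (1.10 ± 0.23), 1 was lower, Meis2, and 4 were not past the test (median 0.19). Between EYFP and WT 5 were higher, among them Meis3 (3.36 ± 0.25), Pbx3 (1.75 ± 0.23), Pbx2 (0.54 ± 0.14) and Zfpm1 (0.48 ± 0.13), 0 were lower and 3 were not past the test (median 0.51). Meis3 stood at 24.5 and 28.2 CPM in EYFP, 10.6 and 12.3 CPM in EGFP, and 2.17 and 2.89 CPM in WT. Meis3 thus stood in the order EYFP, EGFP, WT without overlap, and it was called in every comparison and alternative. Meis2 (-2.32 ± 0.77, adjusted p = 0.045) lost its call without EGFP 1 (adjusted p = 0.18), EGFP 2 (0.19) or WT 1 (-1.23, 0.26), and was -2.95 without WT 2. For EYFP over WT, Pbx2 lost its call without EYFP 1 (0.46, adjusted p = 0.079) or WT 1 (0.45, adjusted p = 0.054), and Zfpm1 without EYFP 1 (0.39, adjusted p = 0.11), so that 3 were left without EYFP 1. For EYFP over EGFP, Zfpm1 had an adjusted p of 0.050 without EYFP 1.

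Other endoderm factors that work with these 9 went both ways. Of 12 tested, 3 were higher, 5 lower and 4 not past the test between EYFP and EGFP (median -0.00), 4 were higher, 4 lower and 4 not past between EGFP and WT (median -0.20), and 4 were higher, 6 lower and 2 not past between EYFP and WT (median -0.45). Prox1, a homeobox factor of endocrine and liver cells, was the largest rise in all 3, with 1.43 ± 0.21, 4.61 ± 0.28 and 6.03 ± 0.28 in that order, at 49.3 and 60.8 CPM in EYFP, 19.8 and 21.1 CPM in EGFP, and 0.583 and 1.03 CPM in WT. With 7 and 17 counts in WT, Prox1 passed the filter on low counts through the sorted groups. Isx, an intestinal homeobox gene that Cdx2 is known to activate, was the largest fall between EYFP and EGFP (-2.57 ± 0.24, adjusted p = 0.00045), at 16.2 and 25.8 CPM in EYFP, 120 and 130 CPM in EGFP, and 167 and 205 CPM in WT. Creb3l3, a factor of lipid handling in enterocytes, was the largest fall in EGFP relative to WT (-5.65 ± 0.51) and in EYFP relative to WT (-5.01 ± 0.49, and -5.81 without EYFP 2). Foxa2 and Foxa3, pioneer factors of endoderm, differed between the sorted groups in opposite directions. Foxa2 stood at 81.4 and 75.3 CPM in EYFP, 37.6 and 45.3 CPM in EGFP, and 6.91 and 6.87 CPM in WT, with 0.92 for EYFP over EGFP. Foxa3 stood at 53.8 and 39.0 CPM in EYFP, 106 and 125 CPM in EGFP, and 12.6 and 16.4 CPM in WT, with -1.31 for EYFP over EGFP. Both were above WT in all sorted libraries and kept their calls when any 1 library was left out. The 5 lower between EYFP and EGFP were 3 without EYFP 1, EGFP 1 or EGFP 2.

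**Figure D5:**
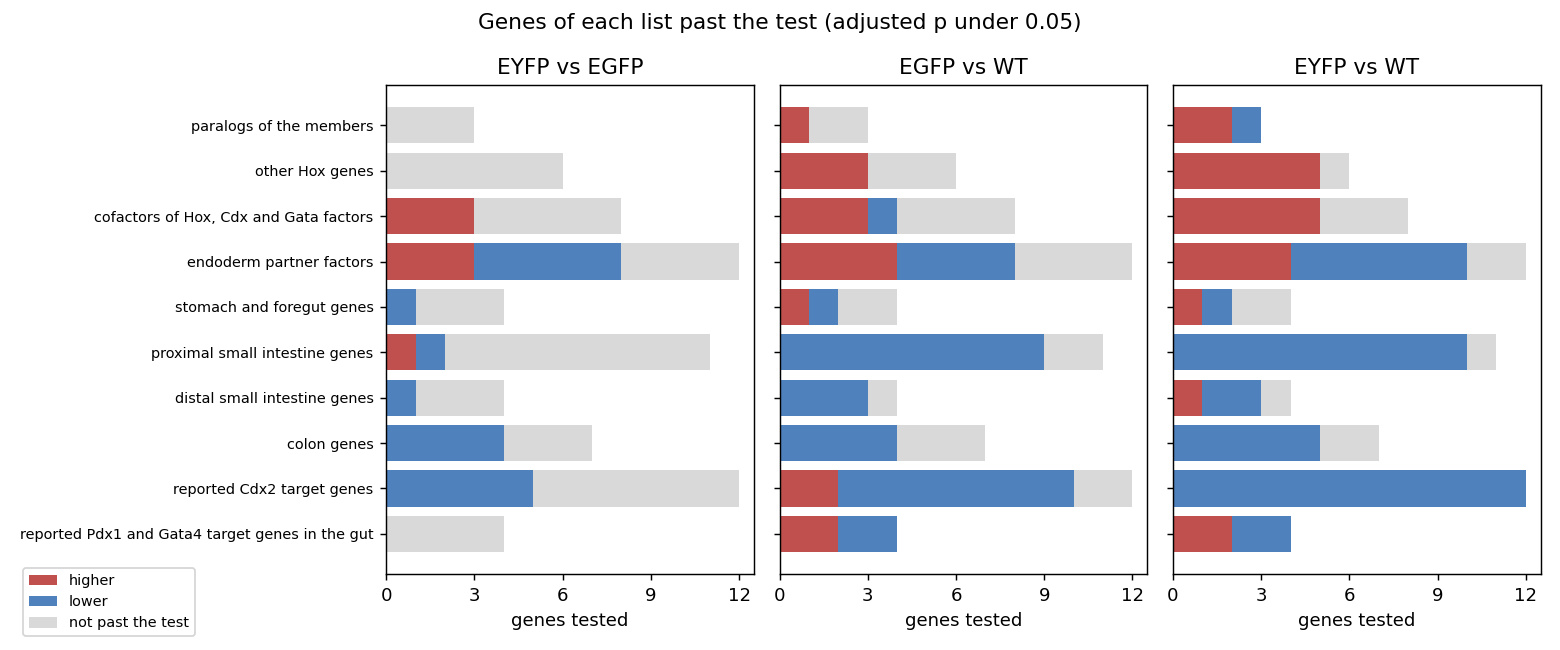
Number of tested genes of each list (horizontal axis) that were higher, lower or not past the test at an edgeR adjusted p under 0.05, for EYFP over EGFP, EGFP over WT and EYFP over WT. Of 11 genes of the proximal small intestine, 9 are lower in EGFP and 10 in EYFP than in WT, and of the 6 tested Hox genes outside the members, which passed the filter through the sorted groups, 3 and 5 are higher.

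Genes that mark stretches of the gut were read beside the factors. Of 11 genes of the proximal small intestine, 0 were higher and 9 lower in EGFP than in WT (median -4.12), and 0 higher and 10 lower for EYFP over WT (median -5.17), beside medians of 0.00 and -0.12 for all genes. Apoa4, an apolipoprotein of chylomicrons, stood at 69.4 and 164 CPM in EYFP, 90.7 and 88.1 CPM in EGFP, and 5263 and 8889 CPM in WT (-6.31 ± 0.54 for EGFP over WT). Lct, the lactase of the brush border, was the largest fall in EYFP relative to WT (-6.31 ± 0.66), at 21.1 and 49.8 CPM in EYFP, 32.0 and 49.7 CPM in EGFP, and 1764 and 3838 CPM in WT, with -7.05 without EYFP 2 and -5.64 without WT 2. Between EYFP and EGFP, 1 was higher, 1 lower and 9 not past the test (median -0.20). Adh1, an alcohol dehydrogenase, was the higher one (1.19 ± 0.22, adjusted p = 0.0052, and 0.061 without EGFP 1), and Cybrd1, an iron reductase of the duodenum, the lower one (-2.70 ± 0.70, adjusted p = 0.021, lost without any 1 of the 4 libraries compared, with adjusted p from 0.060 to 0.12).

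Tested genes of the distal small intestine and colon were also more often lower than higher in sorted cells relative to WT. Some of them were high in the WT libraries, as Car4 at 226 and 356 CPM. Others were nearly absent there, as Fgf15 at 0.0833 and 0.0603 CPM. Of 7 distal genes 4 were tested, with 1 lower between EYFP and EGFP, 3 lower between EGFP and WT, and 1 higher and 2 lower between EYFP and WT (medians -0.35, -2.45 and -3.03). Slc51b, a subunit of the bile acid exporter, had the largest falls, -4.89 ± 0.29 in EGFP and -5.90 ± 0.31 in EYFP relative to WT, and its partner Slc51a was the lower gene between EYFP and EGFP (-1.47 ± 0.34, with adjusted p of 0.071 without EYFP 1 and 0.079 without EGFP 2). Gpbar1, a bile acid receptor known in enteroendocrine cells, was the higher one in EYFP than in WT (3.55 ± 0.78, and 2.87 without EYFP 1). With 2 and 2 counts in WT it passed the filter through the sorted groups, so its rise was in part built into the choice of genes. Fabp6, the ileal bile acid binding protein, was not tested and stood at 7.0 CPM in EGFP 1 and at or under 0.362 CPM in the other 5 libraries. Of 8 colon genes 7 were tested, with 0 higher in any comparison (1 between EYFP and EGFP without EYFP 1, and 1 between EGFP and WT without EGFP 2) and 4, 4 and 5 lower in the same order (medians -2.49, -1.86 and -4.77). The 4 lower between EYFP and EGFP were 2 without EYFP 1 or EGFP 1. Aqp8, a water channel, was the largest fall in EGFP relative to WT (-7.54, and -6.69 without EGFP 1), at 0.775 and 2.78 CPM in EYFP, 0 and 0.423 CPM in EGFP, and 61.0 and 34.0 CPM in WT. Ang4, a product of Paneth and goblet cells from a family of similar copies among which reads may be split, was the largest fall in EYFP relative to EGFP (-4.49) and to WT (-5.33), at 22.1 and 15.6 CPM in EYFP, 552 and 298 CPM in EGFP, and 218 and 1299 CPM in WT. Its call against EGFP was lost without any 1 of those 4 libraries (adjusted p from 0.063 to 0.16), and its call against WT without EYFP 1 (adjusted p = 0.066) or EYFP 2 (0.080), with -6.11 without WT 1 and -3.54 without WT 2. Without EGFP 2, Aqp8 is at 0 in EGFP and no fold is given. Car4, a carbonic anhydrase, fell in all 3 (-2.51 ± 0.31, -2.28 ± 0.29 and -4.80 ± 0.33). Retnlb, a goblet cell product of the colon, stood at 61.4 CPM in EGFP 1 and at or under 2.78 CPM in the other 5 libraries. EGFP 1 thus held the most of both Fabp6 and Retnlb.

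Most stomach genes had too few counts to test. Of 16, 4 were tested, and 0 were higher and 1 lower between EYFP and EGFP, 1 higher and 1 lower between EGFP and WT, and 1 higher and 1 lower between EYFP and WT (medians 0.35, -1.03 and 0.37). Sox2, the factor of the foregut, had no more than 0.0846 CPM in any library. Pgc, a pepsinogen, was the 1 gene that rose against WT, by 3.51 ± 0.44 in EGFP and 1.95 ± 0.44 in EYFP, at 8.10 and 14.7 CPM in EYFP, 22.7 and 44.6 CPM in EGFP, and 2.66 and 3.20 CPM in WT. Its EYFP call against WT was lost without WT 1 (1.82, adjusted p = 0.055). It fell in EYFP relative to EGFP (-1.57 ± 0.40), a call lost without EYFP 1 (-1.20, adjusted p = 0.096) or EGFP 2 (-1.0, adjusted p = 0.11). Gkn3, a gastrokine, was the lower gene against WT (-1.91 ± 0.39 in EYFP, -1.46 ± 0.38 in EGFP), and in EGFP its call was lost without EGFP 1 (-1.20, adjusted p = 0.13), EGFP 2 (-1.67, adjusted p = 0.054) or WT 1 (-1.05, adjusted p = 0.098).

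Genes reported as targets of Cdx2, which was itself not called, were mostly lower in sorted cells than in WT. Of 12, which include Cdx1 and Isx, 0 were higher and 5 lower between EYFP and EGFP (median -0.24), 2 were higher and 8 lower between EGFP and WT (median -1.75), and 0 higher and 12 lower for EYFP over WT (median -2.76). Of all tested genes, 19.4%, 21.9% and 33.5% were lower in the same order. The part of Cdx2 in these differences was not tested. Muc2, the mucin of goblet cells, was the largest change between EYFP and EGFP (-7.55 ± 0.90, -6.79 without EYFP 1 and -9.20 without EYFP 2), and it was one of the 2 that were higher in EGFP than in WT together with Cdx1 (2.96 ± 0.73, adjusted p = 0.020, and from 0.084 to 0.15 without EGFP 2, WT 1 or WT 2). Heph, a ferroxidase of iron export, fell in all 3 comparisons (-1.69 ± 0.30, -2.12 ± 0.29 and -3.81 ± 0.32), at 15.8 and 25.2 CPM in EYFP, 58.0 and 74.1 CPM in EGFP, and 228 and 346 CPM in WT. Isx and Hnf4a completed the 5 lower between EYFP and EGFP, and Hnf4a (-0.62 ± 0.17) lost its call without any 1 of those 4 libraries (adjusted p from 0.10 to 0.17). Lct was the largest fall against WT in both sorted groups (-6.10 ± 0.65 in EGFP). The 12 falls in EYFP relative to WT were 11 with totals that leave out the 50 most abundant genes, where Cdx1 was the exception, and between 9 and 12 when 1 library was left out. The 8 falls in EGFP relative to WT were 5 without EGFP 1.

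Genes reported as targets of Pdx1 and Gata4 in the gut went both ways. Of 6, 4 were tested, and 0 were called between EYFP and EGFP by edgeR (0 at an unadjusted p under 0.05, 0 by DESeq2, and 1 without EYFP 1 or EGFP 2; median 0.11). In both comparisons with WT 2 were higher, the hormone genes Gip and Sst, and 2 lower, the enterocyte genes Lct and Fabp1 (medians -0.27 and 0.06). Gip, the incretin of duodenal K cells whose promoter Pdx1 is known to bind, stood at 2039 and 11598 CPM in EYFP, 4456 and 5704 CPM in EGFP, and 92.2 and 158 CPM in WT (5.77 ± 0.93 for EYFP over WT, 6.54 without EYFP 1 and 4.02 without EYFP 2; 5.34 ± 0.91 for EGFP over WT, with adjusted p of 0.068 without WT 1 and 0.061 without WT 2). Sst, somatostatin, had 5.73 ± 0.65 for EYFP over WT (6.32 without EYFP 1 and 4.70 without EYFP 2) and 4.87 ± 0.62 for EGFP over WT. Fabp1, the liver type fatty acid binding protein, fell by 5.61 ± 0.51 in EYFP (-6.47 without EYFP 2) and by 5.40 ± 0.51 in EGFP relative to WT.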

How the data were processed

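Single-end sequencing of total RNA gave reads of 50 bases, per the labels' protocols. The genome build mm10 and the tools RSEM 1.3.1, Bowtie2, DESeq2 1.26.0 and FastQC 0.11.8 were named in the submitters' processing notes. Roles, settings and strandedness are not stated in the sources used here. The file of estimated counts per gene is as the authors deposited it. Another deposited file gives, per gene, the authors' scaled signal, a linear fold and an adjusted p-value, printed as given. Columns named addon were matched to the titles that hold this word.

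Counts were rounded, filtered with edgeR 4.0.16 (filterByExpr, which left 13935 genes, 58.4%), scaled with TMM and tested with the quasi-likelihood test (robust) on 3 group means over 6 libraries (3 residual degrees of freedom), adjusted over all tested genes by Benjamini-Hochberg. The biological coefficient of variation was 19.8%. R 4.3.3, limma 3.58.1, DESeq2 1.42.0 and Python 3.11.15 were used, and the tests were tried on simulated data. Lengths came from the GENCODE M21 transcript matched to each RefSeq identifier, and sequences from RefSeq, where 3 of 9 members (Pdx1, Cdx2 and Hoxb8) had a window. Profile distances used log2 CPM with a prior count of 2. A group at 0 got a floor of 3 counts, and the counts of the other group were taken as exact. Floors and intervals cover counting error only. Low members rest on few reads, since 1 CPM is under 10 counts in the smallest library.

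The members and gene lists were chosen with earlier results of these data known. All members are named, with the called gene of largest change in each direction per list, all called genes of lists with 5 or fewer, and the 2 nearest profiles per member; other genes named were chosen after their values were seen. Some genes of these lists are not reported here. Alternatives were DESeq2 size factors, totals without the 50 most abundant genes, no filter, a minimum of 10 counts in 2 libraries of 1 group, a DESeq2 Wald test, the block by replicate number, a fit of only the 4 libraries compared, and leaving out each library. Where 1 library was left in a group, it was assumed to vary like the others.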

Additional observations from a re-analysis of the deposited data

Results flagged for a closer look

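Cdx1 stood out because its differences from WT pointed in opposite directions in the sorted groups, lower in EYFP (-0.55) and higher in EGFP (0.54), and the difference between the sorted groups itself passed the test, with a log2 fold change of -1.09 for EYFP over EGFP. Strain, reporter, sex-linked transcripts and enteroendocrine marker levels differ between these groups too. So do Muc2, the mucin of goblet cells (-7.55 for EYFP over EGFP), and Ang4, a product of Paneth and goblet cells (-4.49). The part of each in the Cdx1 difference was not tested.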

How the results depend on the processing

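The number of factors past the test was 1 for EYFP over EGFP in every alternative. Leaving out 1 library gave 2 to 4 for EGFP over WT and 2 to 6 for EYFP over WT. The falls of Gata4 against WT, of Gata6 in EGFP and of Cdx1 in EYFP relative to EGFP kept their calls in all alternatives. Directions turned only for values that were not called. Hoxb8 for EYFP over EGFP was 0.0593 with DESeq2 size factors, 0.0614 with totals without the 50 most abundant genes, 0.0336 in the Wald test and 0.00068 with only the 4 libraries, and Cdx2 for EGFP over WT was 0.060 without the 50 genes. With 1 library left out, Hoxb8 and Hoxb7 for EYFP over EGFP ranged from -1.78 to 0.72 and from -1.24 to 0.47, Cdx2 and Onecut2 for EYFP over WT from -0.24 to 0.30 and from -0.16 to 0.49, and Pdx1 for EGFP over WT from -0.17 to 0.76. The cause was not tested.

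The replicate number as a block left 1, 4 and 4 factors called. Deviations of same-numbered libraries correlated at 0.022, 0.096 and 0.014 over genes. Such values over all genes cannot exclude a shared batch that acts on some of them, and the sources used here do not say what the number marks. The block moved the calls among all genes to 5444, 5969 and 8630, from 5045, 5779 and 8446. Calls among all genes split into 2343 higher and 2702 lower for EYFP over EGFP and into 2696 and 2423 with DESeq2 size factors. Without the 50 most abundant genes they were 5202 higher and 1928 lower for EGFP over WT (2733 and 3046 with TMM) and 5860 and 2965 for EYFP over WT (3778 and 4668). Few reads limit the Hoxb genes, of which Hoxb6 was not tested in the main fit and Hoxb7 and Hoxb8 were left out by the stricter filter.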
